A study of Mus musculus with 19 samples.

Results

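The genes described here are markers of megakaryocytes and platelets: Gp1ba, Gp1bb, Gp9, Gp5, Itga2b, Itgb3, Pf4, Ppbp and Treml1. They were picked by gene symbol and are 9 of the 27179 genes listed in the deposited table. All 9 passed the filter on low values, an RPKM (reads scaled to gene length and to library size) of at least 0.5 in at least 4 mice, which left 14186 genes for testing. Of the 27179 listed genes, 25275 were matched to RefSeq by Entrez Gene identifier.

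Megakaryocytes are large polyploid cells that shed platelets into the blood, and in mice they live in the red pulp of the spleen as well as in the bone marrow. Platelets carry RNA inherited from their megakaryocyte, and the spleen stores platelets, so RNA of these genes in splenocytes can come from either source. Platelets stop bleeding by a relay of surface proteins. The glycoprotein Ib-IX-V complex catches von Willebrand factor on the damaged vessel wall, the integrin αIIbβ3 binds fibrinogen and links platelets to each other, and alpha granules release chemokines.

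RNA was measured by polyA RNA sequencing of splenocytes from 19 FCG mice, in which gonadal sex does not depend on the sex chromosomes. Fathers carried the transgene Tg(Sry)2Ei and the Y chromosome allele Sry dl1Rlb on a B6.Cg background, and mothers were C57BL/6J: the testis-determining gene Sry is deleted from the Y chromosome and carried as a transgene on an autosome. The groups were 5 XXF mice (XX with ovaries), 4 XYF mice (XY with ovaries), 5 XXM mice (XX with testes) and 5 XYM mice (XY with testes). Every mouse had been immunized intraperitoneally with heat-killed Streptococcus pneumoniae (HKSP) 7 days before the spleen was taken, and the group set holds no unimmunized mice. Red cells were lysed before RNA was extracted, and no source used here states the age of these mice. Each library came from its own mouse. Each group is a run of consecutive library numbers, so a difference in handling between groups cannot be told apart from gonadal sex or from the sex chromosomes.

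Depth, recovered from the steps between values, ran from 11263753 reads in XYF F6 to 19962022 in XYM 13, with a median of 17391536. The highest correlation between the values of 2 mice was 0.990, so no library was a copy of another. The labelled tissue was visible in its lymphocyte markers: Cd79b of B cells averaged 865 RPKM and Trac of T cells 215 RPKM.

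Some mice stood apart from the rest of their group. The summed RPKM of 9 neutrophil markers was 57010 in XYF F9 and 58980 in XYM 9, against 3239 to 16820 in the other 17 mice. The summed RPKM of the 9 platelet genes was highest in XYF F9 at 125 and XYF F6 at 121, and lowest in XYM 16 at 39.3, followed by XXM 8 at 59.2.

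By level the genes formed a ladder with Ppbp on top. Ppbp averaged 29.5 RPKM ± 8.36 (SD, n = 19) and Pf4 16.5 ± 6.51 (SD, n = 19), followed by Itgb3 at 12.03 ± 1.47 (SD, n = 19) and Itga2b at 8.26 ± 2.54 (SD, n = 19). Gp9 averaged 6.56 RPKM ± 2.76 (SD, n = 19), and the rest lay lower: Treml1 at 2.63 ± 1.27, Gp1ba at 1.95 ± 0.336 and Gp1bb at 1.04 ± 0.459 (SD, n = 19 each), with Gp5 at 1.81, ranging from 0.807 to 3.45. Neighbours in this order lay no further apart than the sum of their SDs, although Ppbp exceeded Pf4 in every mouse but XXM 2. Every gene had reads in every mouse, from 17 to 89 for Gp1bb, 32 to 124 for Gp5 and 43 to 205 for Gp9, up to 651 to 1515 for Itgb3. Gp1bb is uncertain: 1902 of its 2087 exon bases overlap exons of Sept5 on the same strand, so reads of these genes may have been shared or dropped.

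**Figure D1:**
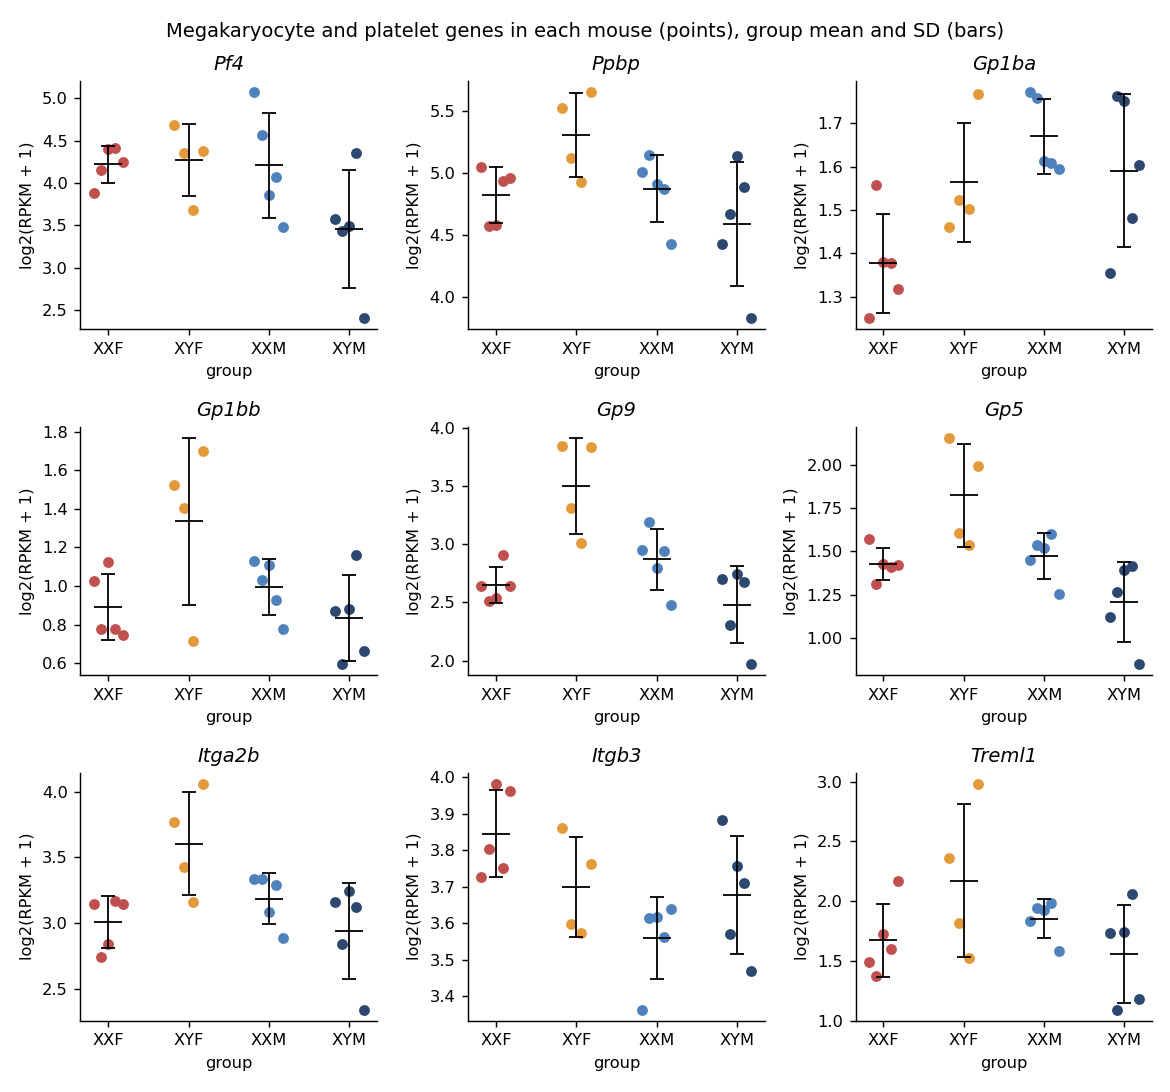
Log2(RPKM + 1) of the 9 platelet genes by group, 1 panel per gene with its own axis range, with points for the 19 mice and bars for the mean and SD of each group. For Gp9 the 4 XYF mice lie between 3.01 and 3.84, above the 5 XYM mice between 1.97 and 2.74.

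Of the 6 genes that were lower in XYM than in XYF mice, the promoters of 3 that hold a match to a motif searched for are shown as examples. Of the 9 genes, 8 have a promoter in the RefSeq table of build GRCm38.p6, and Itgb3 has no entry. In the 250 bases before each start, both strands were searched for GATAA, the letters bound by GATA factors, and AGGAAG, letters bound by ETS factors, and the matches do not overlap each other. GATAA stood in 7418 of 32851 promoters, 22.6%, and in 3 of the 8 (Gp1ba, Gp9 and Gp5). AGGAAG stood in 9686 of 32851, 29.5%, and in 5 of the 8 (Pf4, Gp1ba, Gp9, Gp5 and Itga2b). The windows are chr6:87777820-87778069 (+ strand) for Gp9, chr16:30310782-30311031 (- strand) for Gp5 and chr5:90772185-90772434 (+ strand) for Pf4, each written 5′ to 3′ with matches of either motif, on either strand, in capitals.
Gp9: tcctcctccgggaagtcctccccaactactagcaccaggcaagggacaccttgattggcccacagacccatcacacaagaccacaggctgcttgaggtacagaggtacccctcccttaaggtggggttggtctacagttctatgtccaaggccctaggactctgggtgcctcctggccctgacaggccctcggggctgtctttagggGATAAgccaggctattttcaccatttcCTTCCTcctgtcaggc
Gp5: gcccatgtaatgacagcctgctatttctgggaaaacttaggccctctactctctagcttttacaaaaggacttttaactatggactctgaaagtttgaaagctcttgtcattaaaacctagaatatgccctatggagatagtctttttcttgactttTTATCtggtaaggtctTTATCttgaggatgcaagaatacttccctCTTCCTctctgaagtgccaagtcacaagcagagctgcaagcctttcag
Pf4: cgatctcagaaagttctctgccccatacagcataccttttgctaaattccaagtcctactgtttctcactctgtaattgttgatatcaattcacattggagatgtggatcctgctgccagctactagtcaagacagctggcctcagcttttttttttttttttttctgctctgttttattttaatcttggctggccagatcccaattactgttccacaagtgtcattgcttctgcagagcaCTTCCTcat
In Gp9 a GATAA match began 43 bases and an AGGAAG match 16 bases before the start. Gp5 held a pair of GATAA matches, at 93 and 77 bases, and an AGGAAG match at 48 bases. Pf4 held no GATAA match and an AGGAAG match 9 bases before its start. Of the other genes that were lower, Itga2b held AGGAAG matches at 125 and 43 bases, and Ppbp and Treml1 held a match to neither motif. The Gp9 window lies inside the span of Gp9, which begins at base 87776131, so it precedes a start within that span. All 250 bases of the Gp1bb window are Sept5 exon, and 180 bases of the Itga2b window are exon of an Itga2b transcript. A match is a run of letters and was not examined for binding.

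Between XYM and XYF mice, a comparison of gonads on an XY background, most of the platelet genes were lower in the mice with testes. Limma called 6 of 9 lower (Gp9, Gp5, Itga2b, Ppbp, Pf4 and Treml1) and none higher, where called means an adjusted p under 0.1 and a difference beyond 1.5-fold in either direction (the size threshold). In the same comparison 15.8% of all tested genes were called in either direction, and 8.13% were called lower. The median log2 difference of the 9 genes was -0.61, beside 0.02 for all tested genes, and 8 of 9 lay below 0, as did 48.4% of all genes. In a suspension of whole spleen, fewer megakaryocytes or platelets and less RNA in each of them cannot be told apart. The count rested on few mice and on the processing: it was 1 without XYM 16, 2 without XYF F9, 3 without XYF F6 and 4 without XYM 12. It was 4 with no filter or in a fit of the 2 groups alone, where Pf4 and Treml1 lost their calls, and 2 with array weights (mice weighted by how well they fit), where Gp5 (-0.49), Itga2b (-0.47), Ppbp (-0.44) and Treml1 (-0.41) lost theirs. Without XYF F9 and XYM 16 together, and without XYF F9 and XYM 9 together, choices made after seeing the data, it was 1, and Gp9 was that gene each time.

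**Figure D2:**
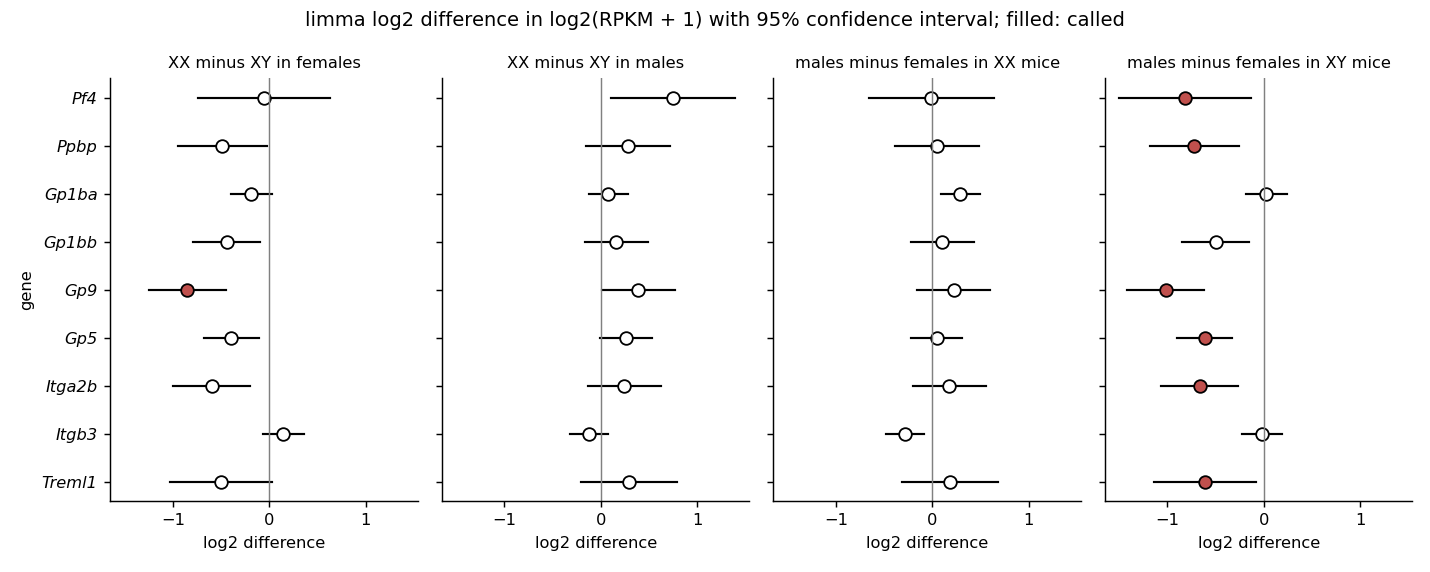
Log2 difference of each of the 9 platelet genes from limma (points, filled where called) with its 95% confidence interval (lines), in 4 panels for XX minus XY in females and in males and for males minus females in XX and in XY mice. Gp9 lies at -1.02 between XYM and XYF mice and at -0.85 between XXF and XYF mice, while Itgb3 lies at -0.02 and 0.15 in these comparisons.

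The glycoprotein Ib-IX-V complex is built from Gp1ba, which holds the von Willebrand factor site, Gp1bb, Gp9 and Gp5. Gp9, a small subunit needed for the complex to reach the surface, measured 5.24, 4.71, 4.82, 6.52 and 5.24 RPKM in XXF F1 to F5 and 13.4, 8.89, 7.07 and 13.3 in XYF F6 to F9. In males Gp9 measured 6.72, 8.11, 5.95, 6.70 and 4.56 RPKM in XXM 2, 5, 6, 7 and 8 and 5.50, 3.96, 5.68, 5.40 and 2.93 in XYM 9, 12, 13, 15 and 16. All 4 XYF mice lay above all 5 XYM mice and all 5 XXF mice, with XYF F6 and F9 well above the other XYF mice. Gp9 fell by 1.02 log2 units in XYM relative to XYF mice (95% confidence interval -1.42 to -0.62, SE 0.191, limma adjusted p = 0.00299), 0.493-fold on the RPKM + 1 scale. It was called without each mouse in turn, with adjusted p from 0.00100 to 0.0157.

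Gp5, the subunit that thrombin cleaves, measured 3.45, 2.05, 1.91 and 2.98 RPKM in XYF F6 to F9 and 1.17, 1.41, 1.63, 1.67 and 0.807 in XYM 9, 12, 13, 15 and 16. It measured 1.97, 1.48, 1.69, 1.66 and 1.68 RPKM in XXF F1 to F5 and 1.73, 1.90, 1.87, 2.04 and 1.39 in XXM 2, 5, 6, 7 and 8. Again all 4 XYF mice lay above all 5 XYM mice, but XXF F1 lay above XYF F8. The log2 difference between XYM and XYF mice was -0.61 (SE 0.136, limma adjusted p = 0.00565). Its size dropped below the threshold without XYF F6 at -0.50, XYF F9 at -0.56 or XYM 16 at -0.52, while adjusted p was at most 0.0294 in these fits.

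Gp1bb, the chain bound to Gp1ba, was called or not with the processing. It had a median of 1.76 RPKM in XYF and 0.830 in XYM mice and ranged from 0.641 to 2.24 RPKM in XYF mice and from 0.513 to 1.24 in XYM mice, with a log2 difference of -0.50 (SE 0.166, limma adjusted p = 0.0325), which is short of the size threshold. This value rests on the pseudocount of 1: Gp1bb was called at -0.65 with 0.5 (adjusted p = 0.0369), at -0.85 with 0.1 (0.0442) and at -0.88 by limma-voom on reads (0.0552), and also without XYF F8, at -0.71. Gp1ba, the ligand-binding chain, ranged from 1.76 to 2.40 RPKM in XYF mice and from 1.56 to 2.40 in XYM mice. Its log2 difference was 0.03 (95% confidence interval -0.19 to 0.24), and below 0 after median ratio rescaling (-0.01) or without XYF F6 (-0.01), XYM 12 (-0.02) or XYM 13 (-0.01). Gp9 and Gp1ba, whose proteins stand in the same complex, thus moved unequally: the RPKM of Gp9 over that of Gp1ba ran from 3.86 to 7.61 in XYF mice and from 1.43 to 3.54 in XYM mice.

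The integrin αIIbβ3 pairs Itga2b, the αIIb chain that is a mark of the megakaryocyte lineage, with Itgb3, the β3 chain, which other blood and vessel cells also use with a different partner. Itga2b measured 12.7, 9.78, 7.95 and 15.7 RPKM in XYF F6 to F9 and 7.94, 6.15, 8.47, 7.72 and 4.08 in XYM 9, 12, 13, 15 and 16. In XX mice Itga2b measured 7.84, 5.69, 6.18, 7.997 and 7.87 RPKM in XXF F1 to F5 and 9.12, 9.10, 7.47, 8.80 and 6.41 in XXM 2, 5, 6, 7 and 8. The XYF and XYM ranges met only at XYF F8 and XYM 13, and all 5 XYM mice lay below the XYF mean of 11.5 RPKM. The log2 difference of Itga2b between XYM and XYF mice was -0.66 (SE 0.191, limma adjusted p = 0.0177). Without XYF F9 or without XYM 16 the difference was -0.51 in each fit, below the size threshold.

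Itgb3 behaved differently from its partner. It measured 13.5, 11.1, 10.9 and 12.6 RPKM in XYF F6 to F9 and 13.8, 10.9, 12.5, 12.1 and 10.1 in XYM 9, 12, 13, 15 and 16. In XX mice Itgb3 measured 12.2, 12.97, 14.8, 12.5 and 14.6 RPKM in XXF F1 to F5 and 9.29, 11.3, 11.3, 10.8 and 11.5 in XXM 2, 5, 6, 7 and 8. The XYF and XYM ranges overlapped almost entirely, and the lowest XXF mouse lay above the highest XXM mouse. Between XYM and XYF mice the log2 difference was -0.02 (95% confidence interval -0.23 to 0.19), and it turned above 0 without XYF F6 (0.03), XYF F9 (0.0009), XYM 12 (0.01) or XYM 16 (0.03). The RPKM of Itga2b over that of Itgb3 was 0.935, 0.881, 0.730 and 1.25 in XYF F6 to F9 and 0.577, 0.566, 0.676, 0.638 and 0.405 in XYM 9, 12, 13, 15 and 16, and these groups did not overlap.

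The chemokines of the alpha granule, Ppbp (CXCL7, which draws neutrophils) and Pf4 (CXCL4, which binds heparin), lie next to each other on chromosome 5. Ppbp measured 45.2, 33.9, 29.4 and 49.3 RPKM in XYF F6 to F9 and 20.5, 24.4, 34.1, 28.5 and 13.2 in XYM 9, 12, 13, 15 and 16. Pf4 measured 24.8, 19.4, 11.8 and 19.8 RPKM in XYF F6 to F9 and 10.97, 9.85, 10.3, 19.4 and 4.32 in XYM 9, 12, 13, 15 and 16. For each gene 4 of 5 XYM mice lay below the lowest XYF mouse, the exceptions being XYM 13 for Ppbp and XYM 15 for Pf4. Ppbp fell by 0.72 log2 units (SE 0.220, limma adjusted p = 0.0234) and Pf4 by 0.82 (SE 0.327, limma adjusted p = 0.0662). Ppbp was short of the size threshold without XYM 16, at -0.53. Pf4 lost its call without XYF F6 (-0.68, adjusted p = 0.193), XYF F7 (-0.79, 0.119), XYF F9 (-0.78, 0.108), XYM 12 (-0.81, 0.112) or XYM 16 (-0.56, 0.18), and with no filter (0.103) or in the 2 groups alone (0.12).

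In XX mice the chemokines spread in another way. Ppbp measured 32.2, 22.8, 23.0, 29.6 and 30.1 RPKM in XXF F1 to F5 and 31.2, 34.5, 29.0, 28.3 and 20.5 in XXM 2, 5, 6, 7 and 8. Pf4 measured 13.8, 16.9, 20.2, 20.2 and 17.9 RPKM in XXF F1 to F5 and 32.6, 22.7, 13.5, 15.9 and 10.2 in XXM 2, 5, 6, 7 and 8. The groups overlapped for each gene, and XXM 2 had the highest Pf4 of all 19 mice. The RPKM of Ppbp over that of Pf4 was lowest in XXM 2 at 0.957 and highest in XYM 13 at 3.31.

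Treml1 encodes a receptor kept in alpha granules and brought to the surface of activated platelets. It measured 4.15, 2.53, 1.87 and 6.89 RPKM in XYF F6 to F9 and 2.32, 1.14, 2.34, 3.17 and 1.27 in XYM 9, 12, 13, 15 and 16. In XX mice Treml1 ranged from 1.59 to 3.48 RPKM in XXF and from 1.99 to 2.95 in XXM mice. XYF F9 was the highest mouse by far, XYF F7 and F8 lay within the XYM range, and all 5 XYM mice lay below the XYF mean of 3.86 RPKM. The log2 difference between XYM and XYF mice was -0.61 (SE 0.251, limma adjusted p = 0.0739). The call was lost without XYF F6 (-0.55, adjusted p = 0.182), XYF F9 (-0.34, 0.258), XYM 12 (-0.49, 0.178) or XYM 16 (-0.51, 0.169), and with no filter (0.116), in the 2 groups alone (0.182) or with array weights (-0.41, 0.224).

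**Figure D3:**
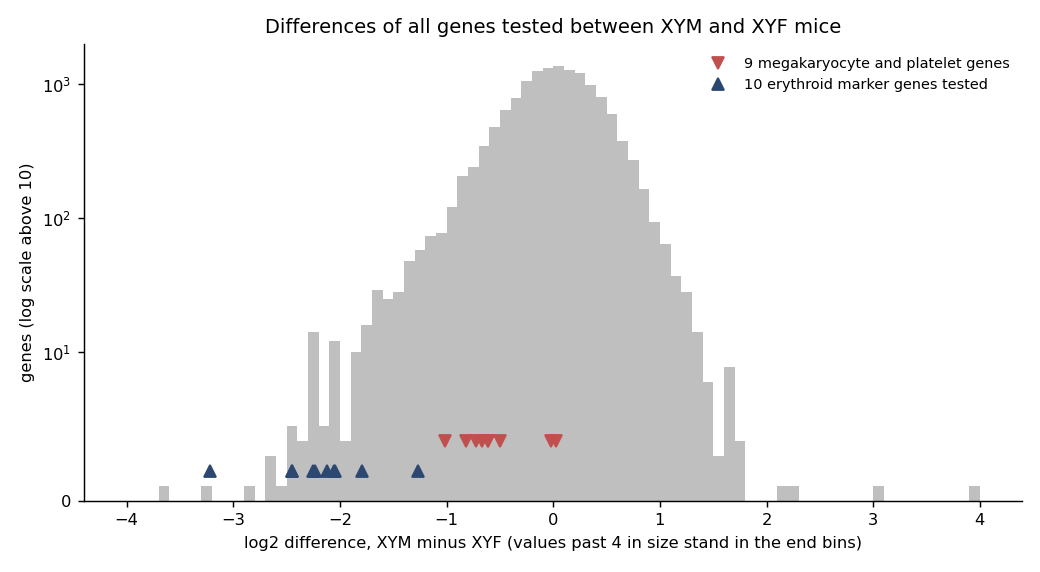
Histogram of the log2 differences between XYM and XYF mice (horizontal axis) over all 14186 tested genes (vertical axis, number of genes, on a log scale above 10), with the 9 platelet genes and the 10 erythroid marker genes as triangles whose height has no meaning. The median is 0.02 for all genes, -0.61 for the platelet genes and -2.18 for the erythroid markers.

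The XX with XY comparison in mice with ovaries asks what the sex chromosomes change when gonads are the same, and here Gp9 alone was called. In XXF relative to XYF mice it stood at -0.85 log2 units (SE 0.191, limma adjusted p = 0.0399), and the groups did not overlap. Limma called 1 of 9 genes lower, beside 1.38% of all genes called in either direction and 0.712% called lower. The median log2 difference of the 9 genes was -0.44 against 0.06 for all genes, and 8 of 9 lay below 0, as did 39.7% of all genes. Itga2b followed at -0.60 (limma adjusted p = 0.138), then Treml1 at -0.50, Ppbp at -0.49, Gp1bb at -0.44 and Gp5 at -0.39, none of them called. Pf4 stood at -0.06 (95% confidence interval -0.74 to 0.63), a sign that turned to 0.08 without XYF F6, 0.03 without XXF F1 and 0.09 with array weights. Gp9 lost its call without XXF F5 (-0.85, adjusted p = 0.102), XYF F6 (-0.74, 0.146) or XYF F9 (-0.74, 0.186), and in a fit of the 2 groups alone (0.116). Itga2b was called without XYF F7 (-0.65, adjusted p = 0.0770), XYF F8 (-0.74, 0.0615), XYM 9 (-0.60, 0.0993) or XYM 16 (-0.60, 0.0995), and without XYF F8 Gp1bb was called too (-0.65, 0.0290).

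The comparison of XXF with XYF mice and that of XYM with XYF mice share the 4 XYF mice, so their differences are not independent. Side by side, in log2 units, Gp9 lay at -0.85 and -1.02, Itga2b at -0.60 and -0.66, and Gp5 at -0.39 and -0.61. Ppbp lay at -0.49 and -0.72, Treml1 at -0.50 and -0.61, and Pf4 at -0.06 and -0.82. Gp9 averaged 10.7 RPKM ± 3.17 (SD, n = 4) in XYF and 5.31 ± 0.722 (SD, n = 5) in XXF mice. Among mice with testes it averaged 6.41 ± 1.29 (SD, n = 5) for XXM, while the XYM mean was 4.69, so XYF was the highest of the groups.

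In mice with testes, limma called 0 of 9 genes between XX and XY mice, beside 2.96% of all genes, while 2 had an unadjusted p under 0.05, as did 27.1% of all genes, and limma-voom called 0. The median log2 difference was 0.26 against 0.01 for all genes, and 8 of 9 lay above 0, while 49.3% of all genes lay below 0. Pf4 lay highest at 0.75 (95% confidence interval 0.10 to 1.40, limma adjusted p = 0.139), followed by Gp9 at 0.39 (0.01 to 0.77, adjusted p = 0.172). Pf4 was called without XXM 8 (0.93, adjusted p = 0.0939) or XYM 15 (0.98, 0.0441) and with array weights (0.71, 0.0460). Averaged over gonads, XX minus XY gave 0 calls by limma, beside 1.72% of all genes, with 0 unadjusted p under 0.05 (22.8% of all genes) and 0 calls by limma-voom, and a median of -0.10.

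Between XXM and XXF mice, Gp1ba and Itgb3 moved in opposite ways by small amounts. Gp1ba measured 1.38, 1.94, 1.61, 1.60 and 1.49 RPKM in XXF F1 to F5 and 2.42, 2.39, 2.06, 2.05 and 2.02 in XXM 2, 5, 6, 7 and 8. All 5 XXM mice lay above all 5 XXF mice for Gp1ba and below them for Itgb3. The log2 differences, 0.29 for Gp1ba (SE 0.0969, limma adjusted p = 0.0852) and -0.29 for Itgb3 (SE 0.0942, limma adjusted p = 0.0837), were short of the size threshold. Limma therefore called 0 of 9 genes, beside 4.22% of all genes, with 2 at an unadjusted p under 0.05 (19.8% of all genes) and 0 called by limma-voom, and the median was 0.10 against -0.01. Averaged over XX and XY mice, males minus females gave 0 calls by limma, beside 7.32% of all genes, with 5 unadjusted p under 0.05 (41.7% of all genes) and 0 calls by limma-voom, and a median of -0.24 against 0.02.

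Whether the XX minus XY difference itself depended on the gonads was tested as an interaction, taken as females minus males. Limma called 0 of 9 genes, beside 0.0846% of all genes, while 6 had an unadjusted p under 0.05, as did 2979 of all 14186 genes, and limma-voom called 0. The median estimate of the 9 genes was -0.77 against 0.02 for all genes, and 8 of 9 lay below 0, as did 48.1% of all genes. Gp9 stood at -1.24 (95% confidence interval -1.79 to -0.69, limma adjusted p = 0.120), Itga2b at -0.84 (-1.39 to -0.29, 0.135) and Gp5 at -0.66 (-1.05 to -0.27, 0.132). The count changed with the mice: 4 genes were called without XXF F3 or without XYF F8, and 3 without XYM 9 or without XYM 15. Calls over all genes, 12 with every mouse, rose in the same fits to 1197 and 749, and to 1694 and 808. Gp9, at -1.21, -1.40, -1.30 and -1.29 without these mice in that order, was called each time, and so were Itga2b and Gp5.

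Across the 19 mice most of the platelet genes rose and fell together, given here as a description of mice that share groups and depth. Among the 21 pairs that leave out Gp1ba and Itgb3, Pearson's r ran from 0.57 to 0.95 with a median of 0.79, and Spearman's rho from 0.57 to 0.93 with a median of 0.67. For each pair the 2 mice farthest from the median of a gene of that pair were also left out, and the median r was then 0.60. After group means were removed, with all mice kept, the median r was 0.68. The closest pair was Gp9 and Itga2b, with r = 0.95 and rho = 0.93. Its r was 0.91 without the 2 mice farthest from the Gp9 median and 0.93 with group means removed. Gp1ba and Itgb3 stood outside this pattern: r ran from -0.60 to 0.15 for Gp1ba and from -0.60 to 0.31 for Itgb3, and was lowest between them. With group means removed, r of Itgb3 ran from -0.29 to 0.61 with a median of 0.41, and was 0.44 with Itga2b. The median for Gp1ba was then 0.07.

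**Figure D4:**
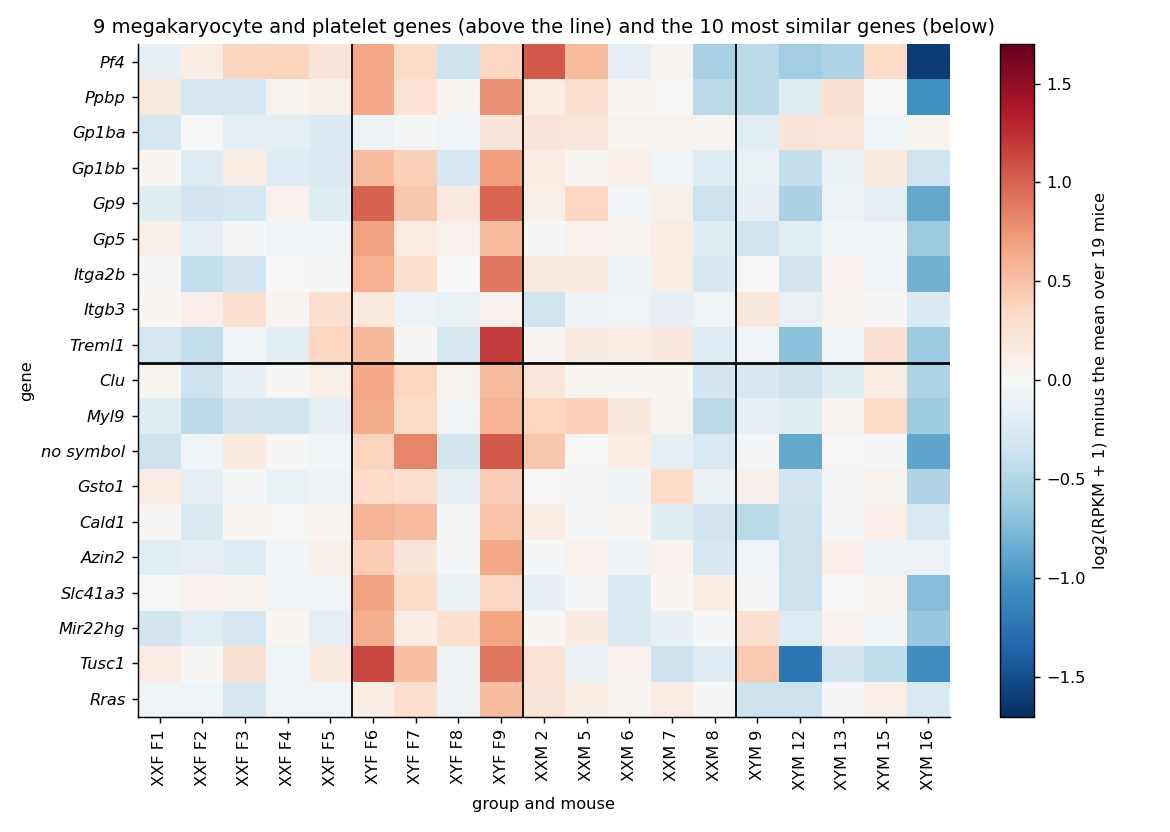
Heat map of the log2(RPKM + 1) value of each gene in each of 19 mice minus its mean over all mice (colour scale), with the 9 platelet genes above a line and the 10 genes most like their mean below it. Most of these genes are high in XYF F6 and XYF F9 and low in XYM 16, while Gp1ba and Itgb3 vary little, with SDs of 0.166 and 0.163.

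Outside the 9 genes, those most like their mean across the 19 mice included Clu, Myl9 and Cald1. Clu encodes clusterin, a secreted chaperone also held in platelet granules, with r = 0.93, 0.86 after group means were removed and 0.92 without the highest and lowest mouse. Clu averaged 7.17 RPKM in XXF, 10.3 in XYF, 7.56 in XXM and 6.26 in XYM mice. Myl9, a myosin regulatory light chain, had r = 0.87, 0.92 with group means removed and 0.84 without these mice, and averaged 9.41 RPKM in XXF, 15.8 in XYF, 13.1 in XXM and 11 in XYM mice. A gene without a symbol in the table, Entrez Gene 100862024, had r = 0.85, and Gsto1, a glutathione transferase, 0.84. Then came Cald1 (caldesmon) at 0.82, Azin2 and Slc41a3 at 0.81 each, and Mir22hg, Tusc1 and Rras (a small GTPase) at 0.79 each. Without the highest and lowest mouse Mir22hg dropped to 0.57, while Cald1 stood at 0.86 and Azin2 at 0.87.

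Of 47 other genes of megakaryocytes and platelets, 45 could be tested; Selp, at 0.226 to 1.41 RPKM, and Rab27b, at 0.194 to 0.671, did not pass the filter. Between XYM and XYF mice 9 of the 45 were lower and 1 higher, beside 8.13% of all tested genes called lower and 15.8% in either direction, and the median log2 difference was -0.15. The count of lower genes was 5 without XYF F6 and 6 without XYF F7, and the count of higher genes was 4 without XYF F9 or XYM 15, 3 without XYM 9 and 2 without XYF F8.

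Adhesion ligands and granule cargo gave 0 of 8 calls by limma, with 0 unadjusted p under 0.05 and 0 calls by limma-voom; Srgn, the granule proteoglycan, at 592 RPKM, and Tgfb1 at 135 RPKM were the most abundant and are made by many blood cells. Among 13 receptors, Cd9 at 82.4 RPKM and Clec1b at 13.5 were the most abundant. Clec1b, the podoplanin receptor CLEC-2, was lower in XYM mice at -0.93 (SE 0.188, limma adjusted p = 0.00388), and this held without each mouse in turn. Of 3 thromboxane and lipoxygenase enzymes 2 were lower: Tbxas1, thromboxane synthase, lay at -0.71 (SE 0.213, limma adjusted p = 0.0221) and Ptgs1, cyclooxygenase-1, at -0.61 (SE 0.248, adjusted p = 0.0720). The median of these enzymes was -0.61. Tbxas1 was short of the size threshold without XYF F7, at -0.50, and with array weights, at -0.56. Ptgs1 lost its call without XYF F6 (-0.67, adjusted p = 0.105), XYF F7 (-0.40, 0.241), XYF F9 (-0.55, 0.130), XYM 12 (-0.57, 0.139), XYM 13 (-0.59, 0.118), XYM 15 (-0.52, 0.129) or XYM 16 (-0.53, 0.159), and with no filter (0.11) or in the 2 groups alone (0.169).

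Of the machinery for integrin activation, granules and cytoskeleton, 1 of 12 was called: Gng11, a G protein gamma subunit, at -0.99 (SE 0.346, limma adjusted p = 0.0398). It lost the call without XYF F6 (-0.89, adjusted p = 0.120), XYF F7 (-0.82, 0.113) or XYM 16 (-0.80, 0.107). Limma-voom called 3 of the 12, and 6 had an unadjusted p under 0.05 by limma, as did 42.4% of all genes. Myh9 at 155 RPKM and Flna at 118 RPKM, the most abundant of this role, are cytoskeletal proteins of nearly all cells.

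Of 9 transcription factors 5 were lower and 1 higher, with a median of -0.75. Gata1, which drives megakaryocytes and red cells alike, was lower in XYM mice with a log2 difference of -2.07 (SE 0.535, limma adjusted p = 0.0114), Tal1 with -2.13 (adjusted p = 0.0147) and Gfi1b with -1.63 (SE 0.484, 0.0208), and these calls held without each mouse in turn. Nfe2, needed for platelet shedding, lay at -1.65 (SE 0.541, limma adjusted p = 0.0313), and lost its call without XYF F6 (-1.47, adjusted p = 0.104) and in the 2 groups alone (0.117). Zfpm1, the partner of Gata1, lay at -0.75 (limma adjusted p = 0.0981), a call lost without any of 12 mice: XXF F3, F4, F5, XYF F6, F8, F9, XXM 5, 6, 7 and XYM 12, 13, 15, with adjusted p from 0.101 to 0.299. Zfpm1 also lost it with a pseudocount of 0.1 (0.104) or 0.5 (0.101), no filter (0.147), the 2 groups alone (0.151) or array weights (-0.58, 0.145). Fli1, an ETS factor of megakaryocytes that lymphocytes also express, went the other way at 0.87 (SE 0.154, limma adjusted p = 0.00227), and this held without each mouse.

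The 45 genes were also compared between the other groups. XXF and XYF mice differed in 0 by limma, with 5 at an unadjusted p under 0.05 (18.7% of all genes) and 0 by limma-voom; without XXF F3 it was 1 higher, without XYF F7 1 higher and 1 lower, and without XYF F8 1 lower. Between XXM and XYM mice Clec1b was higher in XXM at 0.63 (limma adjusted p = 0.0765) and Flna lower at -0.68 (0.0982), beside 2.96% of all genes called, and these calls were lost without any of 7 and of 11 mice. Clec1b lost it without XXM 2, 5, 6 or XYM 9, 12, 13, 16, with differences from 0.55 to 0.68, and in the 2 groups alone (adjusted p = 0.101) or with array weights (0.56). Flna lost it without XXF F2, F4, F5, XYF F8, XXM 2, 5, 6 or XYM 9, 12, 13, 16, with differences from -0.69 to -0.58, and by limma-voom (adjusted p = 0.105), with no filter (0.134), a pseudocount of 0.1 (0.102), a spread without a trend (0.1) or in the 2 groups alone (0.106). Between XXM and XYM mice the count ran from 0 to 1 higher and from 0 to 4 lower without each mouse. Calls over all genes in those fits ran from 51 to 1213. Between XXM and XXF mice 2 of the 45 were lower and 0 higher, beside 4.22% of all genes called in either direction. XXM mice had less Cd226, an adhesion receptor shared with T and NK cells (-1.66, SE 0.241, limma adjusted p = 0.000281). They also had less Tbxa2r, the thromboxane receptor (-0.75, SE 0.150, limma adjusted p = 0.00474). The interaction gave 0 by limma, with 10 at an unadjusted p under 0.05 (2979 of all genes) and 0 by limma-voom. Leaving out each mouse in turn, the interaction gave 0 to 3 higher and 0 to 6 lower. Its calls over all genes ran from 0 to 1694 in those fits.

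The average of males minus females gave 1 of the 45 higher (Fli1) and 7 lower (Cd226, Gng11, Gata1, Zfpm1, Tal1, Nfe2 and Gfi1b), beside 7.32% of all genes in either direction. In the same average all 10 erythroid markers were lower, with a median of -1.5, and 8 to 10 were without each mouse. Of 5 T cell markers 4 were lower, of 5 proliferation genes 4 were lower, and of 4 B cell markers 2 were higher. Without each mouse these counts ran from 4 to 5, 2 to 5 and 1 to 4. The part of these cells in the calls was not tested. Cd226 (-1.08), Gata1 (-1.30) and Tal1 (-1.50) were called without each mouse in turn. Fli1, at 0.59, was short of the size threshold without XXF F2, F3, XYF F6, XXM 6, 7 or XYM 12, 16 (0.54 to 0.58), after median ratio rescaling (0.57) and with array weights (0.57). Gfi1b (-0.92) lost its call without XYF F6 (-0.77, limma adjusted p = 0.11), and Gng11 (-0.64) without XYF F6, F7, XXM 6, 8 or XYM 16 (-0.59 to -0.53). Nfe2 (-0.95) lost it without XXF F3, XYF F6, F9 or XYM 12, 16 (-0.90 to -0.76), and Zfpm1 (-0.59) without XXF F1, F4, XYF F6, F9, XXM 2, 5, 7 or XYM 12, 15 (-0.58 to -0.44) and with array weights (-0.47).

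**Figure D5:**
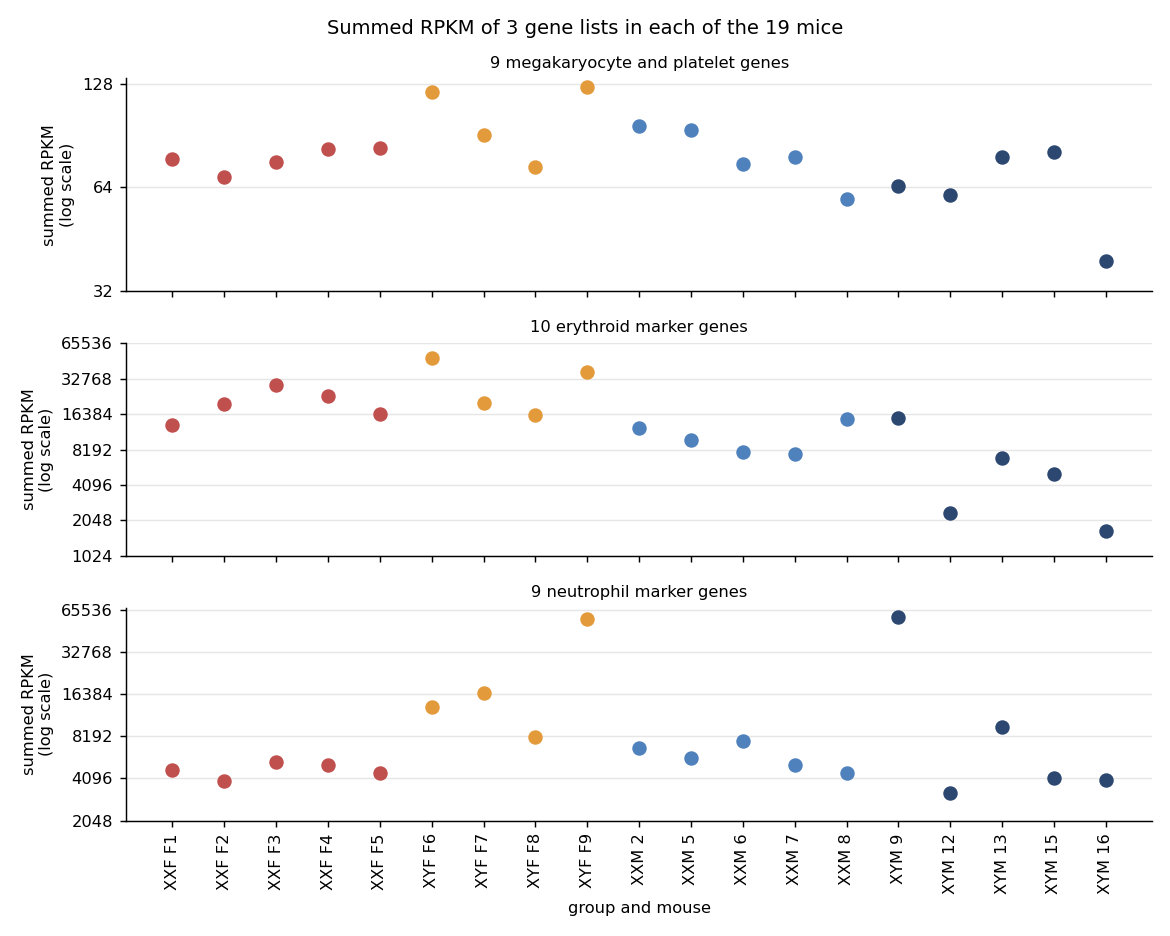
Summed RPKM (log axes) in each of 19 mice, with a panel each for the 9 platelet genes, the 10 erythroid marker genes and the 9 neutrophil marker genes. XYF F6 is high in the platelet and erythroid sums (121 and 49040) and XYF F9 in all of them (125, 37100 and 57010), while XYM 16 is lowest in the platelet and erythroid sums (39.3 and 1652).

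Red cell genes moved with the platelet genes between XYM and XYF mice. Of 11 erythroid markers 10 were listed and tested, and all 10 were lower in XYM mice, with a median log2 difference of -2.18. Hbb-bs, the most abundant at 10150 RPKM, lay at -2.45 (SE 0.553, limma adjusted p = 0.00616), and no erythroid marker was at 0 in any mouse. The others were Alas2, Slc4a1, Epor, Klf1, Ermap, Hba-a1, Hba-a2, Car2 and Tfrc. The count was 7 without XYF F6, 8 without XYF F9, XYM 12, XYM 15 or XYM 16, 9 without XYM 13, and 7 in the 2 groups alone. Their summed RPKM was 49040, 20270, 16150 and 37100 in XYF F6 to F9 and 15150, 2376, 6983, 5116 and 1652 in XYM 9, 12, 13, 15 and 16. In XX mice the sum was 13130, 19930, 29160, 23110 and 16550 in XXF F1 to F5 and 12510, 9824, 7822, 7512 and 14900 in XXM 2, 5, 6, 7 and 8. All 5 XYM mice lay below all 4 XYF mice, and XYF F6 and XYM 16 were the highest and lowest of all. Between XXF and XYF mice limma called 0 of 10, with 1 at an unadjusted p under 0.05 (18.7% of all genes) and 0 by limma-voom, and a median of -0.63. The part of the erythroid genes in the platelet gene result was not tested.

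Neutrophil markers were highest in XYM 9 and XYF F9, and dividing-cell markers in XYF F9, XYF F6 and XYM 9. Limma called 0 of 9 neutrophil markers between XYM and XYF mice, with 1 at an unadjusted p under 0.05 (42.4% of all genes), 0 by limma-voom and a median of -0.68. Of these markers 8 were lower without XYM 9, 4 without XYF F8 and 5 without XYF F9 and XYM 9. Between XXF and XYF mice limma also called 0 of 9, with 8 at an unadjusted p under 0.05 (18.7% of all genes), 0 by limma-voom and a median of -2.08. There 8 were lower without XYM 9, 6 without XYF F8, 3 without XYF F7 and 1 without XYM 12. The most abundant marker was S100a9 at 4978 RPKM. The neutrophil sum was 13250, 16820, 8107 and 57010 in XYF F6 to F9, 3912 to 5392 in XXF, 4497 to 7610 in XXM, and 58980, 3239, 9509, 4143 and 4020 in XYM 9, 12, 13, 15 and 16. Unlike the platelet sum, it was high in XYM 9, and no neutrophil marker was at 0. Of 5 proliferation genes 3 were lower in XYM mice (Ccnb1, Cdk1 and Birc5; the most abundant was Top2a at 41.95 RPKM), with a median of -1.03. That count was 1 without XYF F6, 5 without XYF F7 or XYM 9, 2 without XYF F9, XYM 12, XYM 13, XYM 15 or XYM 16, and 1 in the 2 groups alone. The proliferation sum was 279, 75.0, 163 and 359 RPKM in XYF F6 to F9 and 268, 63.1, 103, 53.5 and 76.1 in XYM 9, 12, 13, 15 and 16. The part of these cells in the platelet gene result was not tested.

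Lymphocyte markers moved as well. All 4 B cell markers (Ms4a1, Cd79a, Cd79b and Cr2) were higher in XYM than in XYF mice, with a median of 0.76, and the count was 2 without XYF F6 or XYF F9, 3 without XYM 12, XYM 13, XYM 15 or XYM 16, and 2 with array weights. Their sum was 1145, 1878, 1873 and 944 RPKM in XYF F6 to F9 and 1573, 2610, 2150, 2824 and 2388 in XYM 9, 12, 13, 15 and 16, lowest in the mice where the platelet sum was highest. Cd79b also lost its call with no filter (0.59, limma adjusted p = 0.123), in the 2 groups alone (0.196) or after median ratio rescaling (0.53). Of 5 T cell markers 4 were lower in XYM mice (Cd3e, Cd3d, Cd8a and Trac, the most abundant), with a median of -0.77, and Cd3d lost its call without XYF F6 (-0.98, limma adjusted p = 0.108) or XYF F7 (-0.88, 0.103). The T cell sum ran from 333 to 794 RPKM in XYF and from 205 to 432 in XYM mice. NK cell markers, led by Gzma at 201 RPKM, gave 0 of 5 calls by limma here, with 0 unadjusted p under 0.05 and 0 by limma-voom, and 1 without XYM 9. Between XXF and XYF mice all 5 were higher in XXF (Ncr1, Klrb1c, Klre1, Gzma and Prf1), with a median of 1.46, and the count was 3 without XXF F5, XYF F6 or XYF F9 and 4 without XXF F1 or XXF F4. The NK sum ran from 392 to 532 RPKM in XXF and from 80.4 to 242 in XYF mice. Of 4 B cell markers 1 (Cr2) was higher in XXF than in XYF mice, with 1 by limma-voom and a median of 0.61. All 4 had an unadjusted p under 0.05 by limma (18.7% of all genes), and the B cell count ran from 1 to 4 without each mouse. Cr2 lost its call in the 2 groups alone (0.79, limma adjusted p = 0.105). The part of lymphocytes in the platelet gene results was not tested.

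Some markers also differed between XXM and XYM mice, where 0 of the 9 platelet genes were called. Of 10 erythroid markers 2 were higher in XXM, Hba-a1 at 1.55 (limma adjusted p = 0.094) and Hba-a2 at 1.52 (0.0808), with a median of 0.70 and 2 by limma-voom. That count was 0 without XXF F5, XXM 2, 5, 6 or XYM 12, 13, 16, with no filter or in the 2 groups alone, 1 without XXF F2, F4 or XXM 8, and 5 without XYM 9. Of 5 NK cell markers 3 were higher in XXM: Klrb1c at 0.91 (limma adjusted p = 0.0727), Klre1 at 0.93 (0.0445) and Gzma at 1.40 (0.0645). The NK count fell to 0 when XXM 2, XYM 13 or XYM 16 was left out and to 1 for XXM 5, XXM 6 or XYM 12 or in the 2 groups alone, and was 4 without XYF F9 or XYM 15, and the sum ran from 316 to 385 RPKM in XXM and from 60.1 to 277 in XYM mice. Of 5 T cell markers 2 were lower in XXM, Cd4 at -0.69 (limma adjusted p = 0.0842) and Cd8a at -0.77 (0.0621). The T cell count was 0 without XXM 2, 5, 6 or XYM 12, 13, 16 and 1 without XXF F5, with no filter or in the 2 groups alone, with sums from 214 to 327 RPKM in XXM and from 205 to 432 in XYM mice. Of 9 macrophage and monocyte markers Ly6c2 was lower at -0.79 (limma adjusted p = 0.0946), a call lost without any of 14 mice and by limma-voom. Between XXM and XXF mice all 5 T cell markers were lower in XXM, with a median of -1.53, and Flt3 was higher at 1.07, counts that held without each mouse. The part of these cells in the platelet gene results was not tested.

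The remaining lists gave few calls between XYM and XYF mice. Their median log2 differences were -0.45 for macrophage and monocyte, 0.23 for endothelial, 0.25 for stem and progenitor, -0.61 for basophil and mast cell and 0.18 for plasma cell markers, so that of the basophil and mast cell markers was as low as that of the platelet genes. Of 9 macrophage and monocyte markers 1 was lower (Spic, at -0.74; the most abundant was Lyz2 at 1137 RPKM), and the sum ran from 1039 to 3901 RPKM in XYF and from 994 to 3743 in XYM mice. Spic lost its call without XYF F6 (-0.70, limma adjusted p = 0.108), XYF F7 (-0.44, 0.148) or XYM 9 (-0.54, 0.0749), or in the 2 groups alone (0.14), and the count of lower markers was 4 without XYF F8, 2 without XYF F9 or XYM 13 and 0 without XYF F7. Of 4 tested endothelial markers 1 was lower (Egfl7, at -0.70), and it lost the call without XYF F6 (-0.49, limma adjusted p = 0.105) or XYM 16 (-0.57, 0.0652), or with array weights (-0.58, 0.0514). Pecam1, at 63.4 RPKM, was the most abundant. Cdh5 and Kdr also passed the filter, while Emcn, Tie1 and Tek did not, and Emcn was at 0 in all 5 XXF mice. Endothelial sums ran from 49.4 to 70.3 RPKM in XYF and from 51.6 to 82.6 in XYM mice. Of 4 tested stem and progenitor markers Flt3, the most abundant, was higher at 0.98, and 2 were without XYF F9; Hlf and Mecom did not pass the filter. Their sum ran from 10.1 to 25.1 RPKM in XYF and from 18.3 to 34.2 in XYM mice. Limma called 0 of 5 basophil and mast cell markers, with 1 at an unadjusted p under 0.05 (42.4% of all genes) and 1 by limma-voom. It called 3 without XYM 9, 2 without XYF F8, and 1 without XXF F3 or XYF F7. Their sum, led by Prss34 at 11.9 RPKM, was highest in XYF F9 at 133 and XYM 9 at 95.2. Limma called 0 of 5 plasma cell markers, with 0 unadjusted p under 0.05 and 0 by limma-voom, and their sum, led by Jchain at 957 RPKM, ran from 1308 to 1825 in XYF and from 1006 to 1644 in XYM mice. The part of these cell types in the platelet gene result was not tested.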

How the data were processed

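The authors aligned reads to mm10, counted them per gene with featureCounts (Subread) and deposited log2(RPKM + 1) values, which were used as they stand. Group means of the 19 mice (4 groups) were estimated with limma 3.58.1, run under R 4.3.3, using empirical Bayes with a trend. Benjamini-Hochberg adjustment ran over all 14186 tested genes. A fold change is on the log2(RPKM + 1) scale and understates that of low genes. Whole reads were recovered from the steps between values for 21314 of 21317 genes with a read (99.99%, within 0.05 reads), and limma-voom on them is an alternative. The paper's sources differ on the library kit, and no batch is named. All members were named, with other listed platelet genes called in a comparison or among the 2 most abundant of their role. Also named were the 10 genes most correlated with the members' mean, the most abundant markers and some of the called markers. Members and lists were chosen with earlier results of these data known. Some listed genes are not reported here. Figures were drawn with matplotlib 3.10.9, and other steps used scipy 1.17.1, numpy 2.4.6 and pandas 2.3.3 under Python 3.11.15.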

Additional observations from a re-analysis of the deposited data

Results flagged for a closer look

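Itgb3 in XXM 2 stood apart from the other 4 XXM mice, with a log2 value of 3.36 (3.363, or 9.29 RPKM from 651 reads) and a gap to the nearest mouse of 0.717 of the group's range. Of 36 sets of values, a gene in a group, 1 was this far apart, and chance alone sets about 1 in 20 apart. The cause was not tested.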

How the results depend on the processing

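Without each mouse in turn, 1134 of 1197 differences of the 9 genes in 7 comparisons kept their sign and their side of the threshold, 18 lost a call, 22 gained one and 23 changed sign. Under the other alternatives 810 of 855 kept both, 23 lost a call, 12 gained one and 10 changed sign. For other called genes, 1611 of 1843 calls held without each mouse and 1187 of 1319 under the other alternatives, with no change of sign.

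Between XYM and XYF mice the count of members called was 6. It was 2 with array weights and 1 without XYF F9 and XYM 16, or without XYF F9 and XYM 9, and ran from 1 to 7 without each mouse. Between XXF and XYF mice the count was 1, and 0 in a fit of the 2 groups alone or without either pair of mice, and 0 to 3 without each mouse. Between XXM and XYM mice it was 0, with 1 under array weights and 0 to 1 without each mouse. With no fold threshold, XXM minus XXF gave 2 and the average of males minus females 3 in place of 0. The interaction gave 0, but 1 with array weights or without XYF F9 and XYM 9, and 0 to 4 without each mouse. Pairs of mice were left out after seeing the data. The causes were not tested.

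Pf4 between XXF and XYF mice was 0.0857 with array weights and -0.2536 to 0.0815 without each mouse. Between XXM and XXF mice, Pf4 ran from -0.2251 to 0.1723 without each mouse, and Ppbp was -0.0263 with array weights and ran from -0.0169 to 0.1634. Gp1ba was -0.0292 between XXM and XYM mice with array weights, and between XYM and XYF mice -0.0132 after median ratio rescaling and -0.0162 to 0.0948 without each mouse. Itgb3 between XYM and XYF mice was 0.0088 with array weights, 0.0530 without XYF F9 and XYM 16, and -0.0715 to 0.0340 without each mouse. For the average of XX minus XY, Itgb3 was -0.0218 after median ratio rescaling, -0.0010 without XYF F9 and XYM 16, and -0.0116 to 0.0416 without each mouse. Treml1 was 0.0750 with array weights, 0.0522 without XYF F9 and XYM 9, and -0.2122 to 0.0309 without each mouse.

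Over all genes, calls of the interaction went from 12 to 1910 with array weights, 782 without XYF F9 and XYM 9, 4 with limma-voom, and 0 to 1694 without each mouse. Calls between XXF and XYF mice (196) ran from 56 to 850 without each mouse, and were 88 in the groups alone and 53 without XYF F9 and XYM 16. Calls between XXM and XYM mice (420) ran from 51 to 1213 without each mouse, and were 1027 with array weights, 211 without a filter and 121 in the groups alone. Calls between XYM and XYF mice (2236) ran from 1395 to 2958 without each mouse, and were 5661 with no fold threshold.

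Few reads limit Gp1bb, Gp5 and Treml1, with at least 17, 32 and 22 reads a mouse. With 4 or 5 mice a group, a difference short of the thresholds does not show that groups are alike. No paired analysis was possible because the groups share no replicate numbers.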
